A study of Arabidopsis thaliana with 28 samples.

Results

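The histone H3 genes and the gene of the centromeric histone CENH3 were followed in diploid and tetraploid Arabidopsis. The 10 genes were taken by locus name: 5 genes for H3.1 (AT5G65360, AT1G09200, AT3G27360, AT5G10400 and AT5G10390), 3 genes for H3.3 (AT4G40030, AT4G40040 and AT5G10980), HTR6 (AT1G13370), which codes for a diverged H3, and CENH3 (AT1G01370, also called HTR12). All 10 were among the 33278 nuclear genes of an expression table of 33557 genes. Another 5 H3 genes of the table were kept as a separate list. The study compared 4 × Col-0, an autotetraploid line made with colchicine from Col-0, with Col-0, the diploid accession that served as wild type. Neither line carries a named mutation or transgene, and the aerial parts of seedlings 10 days old, grown with 16 h of light and 8 h of darkness after 3 days at 4°C, were used as whole tissue. H3K4me3 and H3K27me3 were mapped by ChIP-seq and chromosome contacts by Hi-C in 2 libraries per genotype, anti-H3 ChIP-seq had 1 library per genotype, and RNA-seq had 3 replicates per genotype that were deposited as 1 value per gene and genotype. A single tetraploid line was used, so ploidy and any other property of that line cannot be told apart.

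Histone H3 is a core subunit of the nucleosome, and plants make several forms of it. H3.1 is made mainly in S phase and is put onto DNA behind the replication fork by the chaperone CAF-1, while H3.3 is made through the cell cycle, lies mostly in transcribed genes and is exchanged outside replication with the help of HIRA and ATRX. CENH3 replaces H3 in the nucleosomes of centromeres and carries the kinetochore. Trimethylation of lysine 4 (H3K4me3) marks the starts of transcribed genes, and trimethylation of lysine 27 (H3K27me3) is set by Polycomb proteins on genes that are kept silent in a tissue.

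The H3 genes carry the residues that the antibodies of the study read, and the classes differ at few places. In the RefSeq annotation of TAIR10.1, the coding sequences of the 5 H3.1 genes give the same protein of 136 residues, and so do those of the 3 H3.3 genes (AT4G40030 also has a longer annotated form, not used here). Between H3.1 and H3.3 the proteins differ at 4 positions, 31, 41, 87 and 90, counted without the first methionine. HTR6 differs from H3.3 at 7 positions and from H3.1 at 9, and CENH3 has 178 residues. The coding sequences differ at more places. Any pair of H3.1 genes differs at 43 to 81 of 411 coding bases, and any pair of H3.3 genes at 46 to 88. The coding stretch around lysine 27 (residues 24 to 38) is shown because it holds that lysine and residue 31, by which the Arabidopsis enzymes of K27 monomethylation tell H3.1 from H3.3; the capitals mark the codon of residue 31.

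AT5G65360 (H3.1, chr5:26120393-26120437, minus strand): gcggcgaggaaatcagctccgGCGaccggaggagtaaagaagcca
AT1G09200 (H3.1, chr1:2972016-2972060, minus strand): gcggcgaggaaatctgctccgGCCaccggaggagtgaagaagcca
AT3G27360 (H3.1, chr3:10129753-10129797, minus strand): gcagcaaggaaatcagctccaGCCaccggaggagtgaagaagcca
AT5G10400 (H3.1, chr5:3270772-3270816, minus strand): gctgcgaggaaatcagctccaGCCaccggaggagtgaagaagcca
AT5G10390 (H3.1, chr5:3269359-3269403, minus strand): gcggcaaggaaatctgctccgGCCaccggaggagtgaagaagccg
AT4G40030 (H3.3, chr4:18556219-18556263, minus strand): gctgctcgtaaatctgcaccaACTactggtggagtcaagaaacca
AT4G40040 (H3.3, chr4:18558033-18558077, minus strand): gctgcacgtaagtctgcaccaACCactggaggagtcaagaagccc
AT5G10980 (H3.3, chr5:3472975-3473019, minus strand): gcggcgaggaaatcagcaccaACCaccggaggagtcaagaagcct
HTR6 (chr1:4588406-4588450, minus strand): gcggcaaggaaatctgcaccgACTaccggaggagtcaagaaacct

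The 5 H3.1 genes have 2 spellings of that codon, and the 3 H3.3 genes and HTR6 have another 2 that they share among themselves. At the start of the coding sequence the codon of lysine 4, the residue of H3K4me3, is present in every class. It is set in capitals for 1 gene of each class.

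AT5G65360 (H3.1, chr5:26120474-26120509, minus strand): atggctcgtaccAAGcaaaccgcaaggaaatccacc
AT4G40040 (H3.3, chr4:18558201-18558236, minus strand): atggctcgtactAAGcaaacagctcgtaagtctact
HTR6 (chr1:4588487-4588522, minus strand): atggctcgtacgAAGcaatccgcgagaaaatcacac
CENH3 (chr1:143773-143808, plus strand): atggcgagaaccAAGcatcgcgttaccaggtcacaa

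Exact copies of their exon sequence elsewhere in the genome were rare. Of all runs of 50 bases in their exons, 10 runs in AT3G27360 (1.28%) and 10 in AT5G10400 (1.36%) also occurred elsewhere without a mismatch, the other 8 genes had 0 such runs, and no gene had a run of 100 bases that occurred elsewhere. Mapping with mismatches was not examined.

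The 250 bases before the RefSeq start of each gene were searched on both strands for sequence elements known from plant histone promoters. The octamer CGCGGATC stood before 4 of the 10 genes, against 37 of 27443 promoters of that length in the genome (0.135%). These were the H3.1 genes AT5G65360, AT1G09200 and AT5G10400 and the H3.3 gene AT4G40040. AT1G09200 had 2 copies. The hexamer ACGTCA stood before 3 of the 10 genes (7.69% of all promoters), the TATA element TATAAA before 5 (47.3%), 4 of them H3.1 genes, and the E2F element TTTCCCGC before 0 (0.619%). Other spellings of these elements were not searched, nor were bases after the start, so a count of 0 holds for these letters in this window. No copies of these elements overlapped each other in the 10 promoters. The 3 H3.1 promoters with the octamer are shown with it in capitals, as is the hexamer of AT5G10400 in its reverse orientation, with the promoter of HTR6, which has neither, beside them. None of these 4 windows overlaps another annotated gene.

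AT5G65360 (H3.1, chr5:26120582-26120831, minus strand): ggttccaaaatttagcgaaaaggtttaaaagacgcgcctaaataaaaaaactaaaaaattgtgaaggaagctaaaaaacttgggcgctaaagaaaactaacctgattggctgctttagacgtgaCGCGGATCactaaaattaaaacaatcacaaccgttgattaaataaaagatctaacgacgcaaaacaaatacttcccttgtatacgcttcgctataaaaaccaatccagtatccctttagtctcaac
AT1G09200 (H3.1, chr1:2972335-2972584, minus strand): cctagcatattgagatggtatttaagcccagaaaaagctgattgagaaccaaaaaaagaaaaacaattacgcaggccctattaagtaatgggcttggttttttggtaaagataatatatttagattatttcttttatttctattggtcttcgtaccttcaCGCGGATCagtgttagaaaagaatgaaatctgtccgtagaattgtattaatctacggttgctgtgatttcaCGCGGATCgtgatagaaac
AT5G10400 (H3.1, chr5:3270958-3271207, minus strand): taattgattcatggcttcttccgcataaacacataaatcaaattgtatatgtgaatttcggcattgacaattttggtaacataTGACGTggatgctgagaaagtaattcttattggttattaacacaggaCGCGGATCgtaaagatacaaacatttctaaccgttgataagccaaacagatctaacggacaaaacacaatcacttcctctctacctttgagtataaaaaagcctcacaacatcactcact
HTR6 (chr1:4588662-4588911, minus strand): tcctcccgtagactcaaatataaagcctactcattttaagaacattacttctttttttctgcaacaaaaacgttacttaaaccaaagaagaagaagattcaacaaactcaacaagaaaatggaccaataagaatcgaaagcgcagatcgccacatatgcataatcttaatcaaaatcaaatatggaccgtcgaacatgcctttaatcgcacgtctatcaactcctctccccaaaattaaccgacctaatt

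Counted from the start, with −1 as the base before it, the octamer began at −126 in AT5G65360, at −120 in AT5G10400, and at −90 and −19 in AT1G09200. In AT4G40040 it began at −17, in the reverse orientation, in a window that also overlaps a neighbouring gene. A match describes the letters of the window, and binding was not measured.

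The RNA levels were read as FPKM, which are fragments normalised for gene length and library depth. With 1 value per genotype there is no error and no test, and in whole tissue fewer cells of a type and less RNA per cell cannot be told apart. FPKM are relative to each library, so an RNA level per cell was not measured. The 3 H3.3 genes had the highest levels. AT4G40040 had 583 FPKM in 4 × Col-0, against 597 FPKM in Col-0. AT4G40030 had 394 FPKM in 4 × Col-0, against 337 FPKM in Col-0, and AT5G10980 had 262 FPKM in 4 × Col-0, against 246 FPKM in Col-0. By rank all 3 stood at percentiles of 98.1 to 99.4 among the nuclear genes in both genotypes, and AT4G40040 and AT4G40030 are neighbours, 214 bases apart on chromosome 4.

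The 5 H3.1 genes spread over a wider range although they code for the same protein. AT1G09200 had 146 FPKM in 4 × Col-0, against 149 FPKM in Col-0. AT5G65360 had 113 FPKM in 4 × Col-0, against 108 FPKM in Col-0. AT5G10400 had 45.1 FPKM in 4 × Col-0, against 38.7 FPKM in Col-0. The 3 highest H3.1 genes were the 3 with the octamer. AT3G27360 had 21.9 FPKM in 4 × Col-0, against 16.6 FPKM in Col-0, and AT5G10390 had 18.6 FPKM in 4 × Col-0, against 23.7 FPKM in Col-0. This pair stood in the opposite order in the tetraploid and the diploid, and the other 8 genes kept their rank among the 10. AT5G10390 lies 738 bases from AT5G10400 on chromosome 5, and the lower of these neighbours was AT5G10390 in both genotypes.

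CENH3 had 4.59 FPKM in 4 × Col-0, against 3.90 FPKM in Col-0. HTR6 had the lowest level of the 10, with 0.124 FPKM in 4 × Col-0, against 0.382 FPKM in Col-0. Summed per class, H3.3 had 1239 FPKM in 4 × Col-0 and 1181 FPKM in Col-0, and H3.1 had 344 FPKM in 4 × Col-0 and 335 FPKM in Col-0. The H3.3 sum was 3.60 times the H3.1 sum in 4 × Col-0 and 3.52 times in Col-0. H3.3 genes made up 78.0% of the total of the 10 genes in 4 × Col-0, against 77.7% in Col-0.

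**Figure D1:**
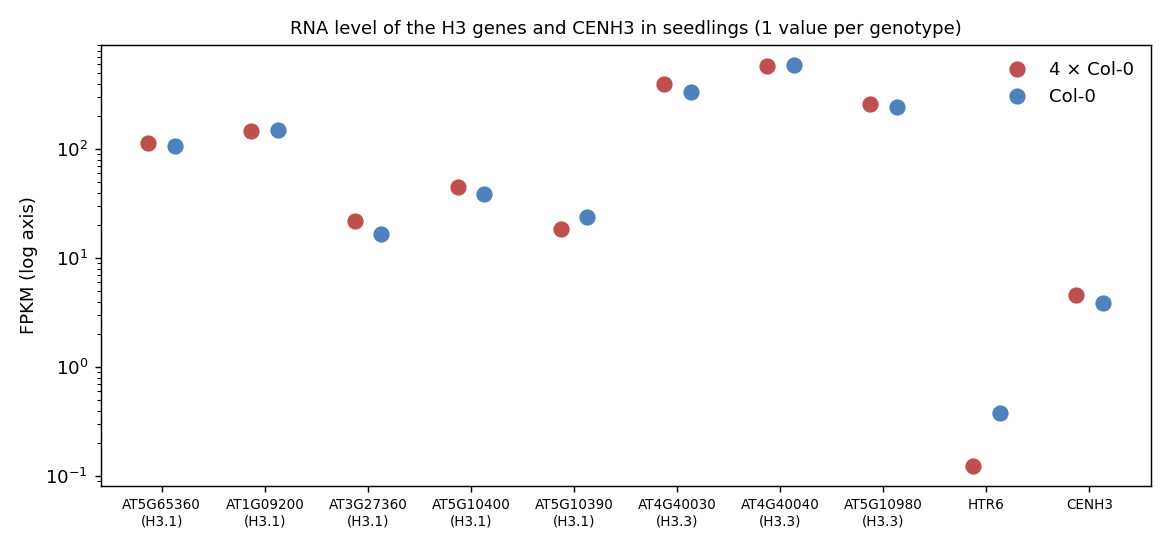
FPKM on a log axis (vertical) of the 10 genes (horizontal), with 1 point for 4 × Col-0 (red, left) and 1 for Col-0 (blue, right), each the authors' value for the genotype with no error. The H3.3 genes lie between 246 and 597 FPKM, the H3.1 genes between 16.6 and 149 FPKM, CENH3 at 4.59 and 3.90 FPKM and HTR6 below 1 FPKM.

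The change between the genotypes was taken as the difference of log2(FPKM + 1), 4 × Col-0 minus Col-0, a scale on which changes at low levels look smaller than they are. Of the 10 genes 0 passed 2-fold, and of the 33278 nuclear genes 334 did (1.00%). With a pseudocount of 1, genes under 1 FPKM in both genotypes, HTR6 among them, cannot pass. Of the 18346 nuclear genes of at least 1 FPKM in either genotype, the same 334 are 1.82%. The differences ran from −0.34 at AT5G10390 to 0.38 at AT3G27360. They were 0.23 at AT4G40030, 0.21 at AT5G10400, 0.19 at CENH3, 0.09 at AT5G10980 and 0.07 at AT5G65360, and −0.03 at AT1G09200, −0.04 at AT4G40040 and −0.30 at HTR6. The values were higher in 4 × Col-0 at 6 genes and lower at 4, with a median of 0.08. Over the 18346 nuclear genes of at least 1 FPKM, 11265 were higher and 7081 lower, with a median of 0.08. After scaling to an equal upper quartile, the median of the 10 genes was 0.01 and that of the 18346 genes was 0.02. HTR6 passed 2-fold with a pseudocount of 0.1 in place of 1, at −1.10, a setting under which 3.85% of the nuclear genes did.

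The genes that work with H3 were taken from lists of histones, chaperones, kinetochore proteins and replication proteins. Of the 8 H4 genes, 7 were higher in 4 × Col-0 by sign (5 after upper-quartile scaling), with a median difference of 0.18. The difference was highest at HIS4, with 74.5 FPKM in 4 × Col-0, against 47.0 FPKM in Col-0, and lowest at AT5G59970, with 60.0 FPKM in 4 × Col-0, against 62.0 FPKM in Col-0. All 4 replicative H2A genes were lower in 4 × Col-0, also after scaling, by small amounts between −0.17 at RAT5 and −0.11 at HTA10. The 9 genes of H2A variants split into 6 higher and 3 lower, and into 3 higher and 6 lower after scaling. The highest and the lowest difference were those of HTA4, at 2.70 FPKM in 4 × Col-0 and 1.27 FPKM in Col-0, and of H2AXA, of the form phosphorylated at DNA breaks, at 101 FPKM in 4 × Col-0 and 117 FPKM in Col-0.

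Past 2-fold were 1 of 11 H2B genes and 1 of 3 H1 genes, against 0.604% of nuclear genes in this direction. That share includes genes under 1 FPKM in both genotypes, which cannot pass. In either direction it was 1.82% among genes of at least 1 FPKM. The H2B gene AT2G28720 had 57.9 FPKM in 4 × Col-0, against 20.4 FPKM in Col-0 (1.46 on the log2 scale). HIS1-3, the stress-induced linker histone, had 145 FPKM in 4 × Col-0, against 69.0 FPKM in Col-0, a difference of 1.06 that became 0.99 after upper-quartile scaling and so fell just under 2-fold. The lowest difference of an H2B gene was −0.30, at AT5G02570, and that of an H1 gene −0.12, at AT2G30620. The 11 H3 chaperone genes had a median of 0.04, with 7 higher and 4 lower (5 and 6 after scaling). FAS1, the large subunit of CAF-1, had 1.31 FPKM in 4 × Col-0, against 0.436 FPKM in Col-0, and HIRA, a chaperone of H3.3, had 2.84 FPKM in 4 × Col-0, against 3.21 FPKM in Col-0. Of the genes around CENH3, all 3 were higher in 4 × Col-0, with a median of 0.27 (0.25 after scaling, all 3 again higher). The gene that gives both medians was under 1 FPKM, with 0.474 FPKM in 4 × Col-0, against 0.224 FPKM in Col-0. The kinetochore protein MIS12 had 8.60 FPKM in 4 × Col-0, against 6.72 FPKM in Col-0, and CENP-C, the kinetochore protein that binds CENH3 nucleosomes, had 3.77 FPKM in 4 × Col-0, against 2.99 FPKM in Col-0. The 9 genes of S-phase replication, which stand in for dividing cells, split into 5 higher and 4 lower with a median of 0.05. MCM2, of the replicative helicase, had 1.86 FPKM in 4 × Col-0 and 0.989 FPKM in Col-0, and TSO2, of ribonucleotide reductase, had 29.1 FPKM in 4 × Col-0 and 39.0 FPKM in Col-0.

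**Figure D2:**
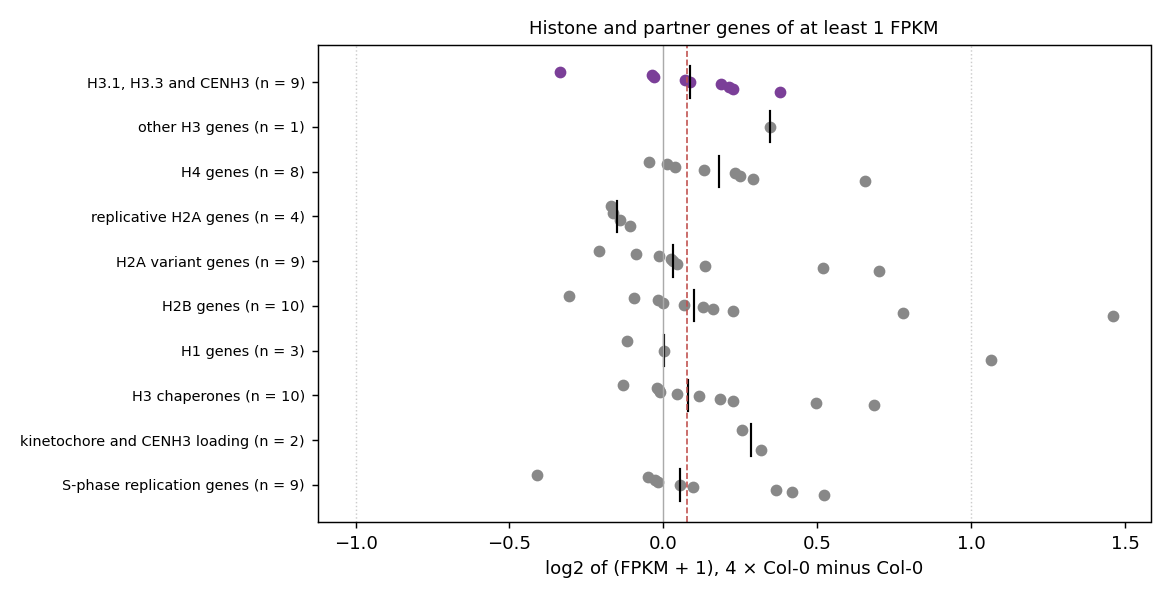
Difference of log2(FPKM + 1), 4 × Col-0 minus Col-0 (horizontal), for the genes of each list with at least 1 FPKM in either genotype (vertical, with n), 1 point per gene and a black bar at the list's median. The dashed red line is the median of all 18346 genes of that level (0.08) and the dotted lines are 2-fold; AT2G28720 (H2B) and HIS1-3 (H1) lie past the upper dotted line, HIS1-3 no longer so after upper-quartile scaling (0.99).

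H3K4me3 was read from the peaks called in each library, as the percent of the gene body under a peak and as the height, which is the highest fold enrichment over the anti-H3 reads among the peaks on the gene. Names inside the H3K4me3 peak lists carry labels of merged and further replicates whose meaning is not given in the sources used here, so their spread may not be that of independent libraries. A peak was present in all 4 libraries at 9 of the 10 genes, as at 14742 of 33278 nuclear genes (44.3%). CENH3 was the exception.

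The H3.1 genes lay under H3K4me3 from before the start of the table's gene model through most or all of the gene. AT5G65360 was covered over 100% of its body in all 4 libraries, with heights of 3.99 and 3.56 in 4 × Col-0, against 4.09 and 5.64 in Col-0. AT1G09200 was covered to 99.0% or more in every library, with heights of 3.43 and 5.39 in 4 × Col-0, against 7.98 and 5.29 in Col-0. At AT5G10400 the heights were 6.32 and 6.02 in 4 × Col-0, against 6.08 and 3.23 in Col-0, with 92.0% and 95.8% covered in 4 × Col-0, against 96.5% and 87.5% in Col-0. The genotypes overlapped in height at AT1G09200 and AT5G10400, while at AT5G65360 both tetraploid values lay below both diploid values, by a gap smaller than the one between the diploid libraries. AT3G27360 had heights of 5.32 and 4.10 in 4 × Col-0, against 5.02 and 6.78 in Col-0, over 71.3% and 69.0% of its body in 4 × Col-0, against 69.7% and 71.7% in Col-0. AT5G10390 had the lowest peaks of the class, with heights of 2.79 and 2.06 in 4 × Col-0, against 2.23 and 2.16 in Col-0. Its coverage was 82.2% and 84.9% in 4 × Col-0, against 86.5% and 58.0% in Col-0, the last value standing apart. AT3G27360, of nearly the same RNA level, had peaks about as high as those of the strongly expressed H3.1 genes.

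The H3.3 genes, which have introns, lay under peaks that began inside the gene. The most upstream base of a peak was 35 to 102 bases after the start of the table's gene model at AT4G40040, 36 to 57 bases after it at AT5G10980 and 125 to 324 bases after it at AT4G40030, while at the H3.1 genes it lay between positions −152 and −1 relative to the start. In RefSeq the starts of all 3 H3.3 genes, and of some H3.1 genes, lie further upstream than in the table. Against the RefSeq starts, every peak of AT1G09200 and most peaks of AT5G10390 also began inside the gene, so the classes do not separate there. AT4G40040 had 74.5% and 72.9% of its body covered in 4 × Col-0, against 54.7% and 56.4% in Col-0, and its peaks ended 1194 and 1199 bases after the start in 4 × Col-0, against 953 and 925 bases in Col-0. The heights did not separate, at 5.91 and 4.82 in 4 × Col-0, against 5.20 and 5.38 in Col-0. AT5G10980 had 76.7% and 74.1% covered in 4 × Col-0, against 65.8% and 69.9% in Col-0, with heights of 3.14 and 4.81 in 4 × Col-0, against 4.93 and 3.13 in Col-0. AT4G40030 had 55.5% and 73.0% covered in 4 × Col-0, against 60.7% and 55.8% in Col-0, with heights of 2.25 and 3.86 in 4 × Col-0, against 3.26 and 3.33 in Col-0. The genotypes overlapped there in both measures, and the peaks of this gene were lower than those of AT3G27360 at many times its RNA level.

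**Figure D3:**
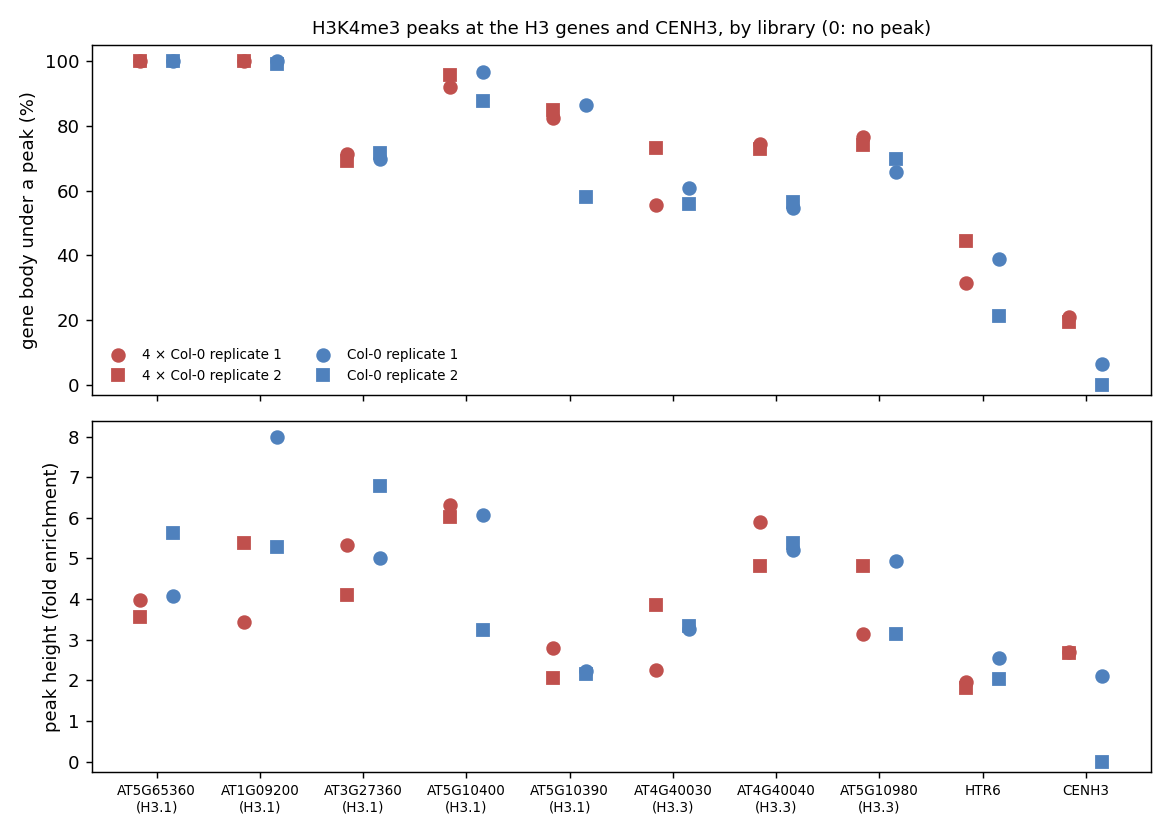
Percent of the gene body under an H3K4me3 peak (top) and highest fold enrichment over anti-H3 reads (bottom) of the 10 genes (horizontal), 1 point per library, 4 × Col-0 (red, left) and Col-0 (blue, right), with circles for replicate 1 and squares for replicate 2; 0 means no peak. At AT4G40040 both tetraploid libraries lie at 72.9% or more and both diploid libraries at 56.4% or less, and at CENH3 a peak is missing in Col-0 replicate 2.

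CENH3 carried a short and weak H3K4me3 peak near its start. It covered 21.1% and 19.3% of the gene body in 4 × Col-0, against 6.65% and 0% in Col-0. The heights were 2.69 and 2.68 in 4 × Col-0 and 2.10 in Col-0 replicate 1, and no peak was called in Col-0 replicate 2. Their −log10 of the q-value was 5.54 and 6.37 in 4 × Col-0 and 2.60 in Col-0 replicate 1, and among the heights of all genes with a peak they stood at percentiles 23.6 and 19.0 in 4 × Col-0 and 3.87 in Col-0 replicate 1. The list without a CENH3 peak also had the smallest total length of peaks, 8.97 Mb, against 10.3 and 11.4 Mb in 4 × Col-0 and 10.3 Mb in the other diploid library, and the part of this in the missing peak was not tested. HTR6 also had short and weak peaks, of 1.97 and 1.82 in 4 × Col-0, against 2.54 and 2.05 in Col-0, over 31.4% and 44.4% of the gene in 4 × Col-0, against 38.8% and 21.2% in Col-0. Among the heights of all genes with a peak, the HTR6 peak stood at percentiles 4.43 and 2.10 in 4 × Col-0, against 11.7 and 3.15 in Col-0.

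The genotypes were compared with limma over all nuclear genes for coverage, and over the 16519 genes with a peak in at least 2 of the 4 libraries for log2(height + 1), with Benjamini-Hochberg adjusted p-values. Of the 10 genes, 0 passed an adjusted p of 0.05 for coverage (0.0541% of all genes tested did) and 0 for height (2.17% did). At an unadjusted p under 0.05 they were 2 for coverage (6.03% of all genes) and 0 for height (10.2%). The 2 were AT4G40040, with a difference of 18.1 percentage points ± 1.09 (SE; limma adjusted p = 0.285), and CENH3, with 16.9 ± 3.24 points (SE; limma adjusted p = 0.697). Both tetraploid libraries lay above both diploid libraries in coverage at 3 genes, AT4G40040, AT5G10980 and CENH3, and below them at 0. Over all genes tested, 19.6% lay above and 2.55% below, and genes without a peak in any library cannot lie in either. Among the 16519 genes with a peak in at least 2 libraries, 39.4% lay above and 5.15% below. In a coverage fit of those genes alone, 3 of the 10 genes had an unadjusted p under 0.05, against 1862 of 16519. There 0 of the 10 genes and 1 of 16519 passed the adjusted threshold. In height, CENH3 lay above (10.5% of genes) with a log2 difference of 1.07 ± 0.59 (SE; limma adjusted p = 0.600), and AT5G65360 and HTR6 lay below (33.2% of genes). The difference of AT5G65360 was −0.29 ± 0.19 (SE; limma adjusted p = 0.638) and that of HTR6 −0.18 ± 0.15 (SE; limma adjusted p = 0.672). With heights divided by the median of each library, AT5G65360 and HTR6 overlapped between the genotypes, CENH3 and AT5G10400 lay above and 0 of the 10 genes below, and over all genes 22.6% lay above and 18.7% below. The difference of CENH3 was then 0.54 (limma adjusted p = 0.584), and 0.53 with the mean fold over the gene (limma adjusted p = 0.476). The height of CENH3 rested on the diploid libraries. Without Col-0 replicate 1, and so against a diploid value of 0 in the only library left, it differed by 1.88 (limma adjusted p = 0.0389), where 5.04% of all genes passed, and without Col-0 replicate 2 by 0.25 (limma adjusted p = 0.524), where 0 passed and 2627 genes had an unadjusted p under 0.05.

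H3K27me3 separated HTR6 from the other 9 genes. HTR6 had a peak in all 4 libraries, as 20.6% of nuclear genes did, and the other 9 genes had none in any library, as 74.8% of nuclear genes did. The HTR6 peak covered 90.0% and 81.9% of the gene in 4 × Col-0, against 83.6% and 80.1% in Col-0, with fold enrichments of 2.51 and 2.71 in 4 × Col-0, against 2.36 and 2.61 in Col-0. Among all genes with an H3K27me3 peak these heights stood at percentiles 52.5 and 58.0 in 4 × Col-0, against 41.9 and 43.9 in Col-0. The peak began between positions −107 and −9 relative to the start of the gene and ended 667 to 750 bases after it, and the H3K4me3 peak of HTR6 lay within that stretch, with its highest point 173 to 191 bases after the start in the 4 libraries. Peaks of both marks in all 4 libraries were found at 1155 nuclear genes (3.47%). HTR6 was among them, with H3K4me3 peaks of a −log10 of the q-value of 3.75 and 3.70 in 4 × Col-0, against 6.52 and 3.17 in Col-0. At a q-value no higher than 1e-05 its H3K4me3 peak was left in 1 of the 4 libraries, Col-0 replicate 1, and its H3K27me3 peak in all 4, and 362 nuclear genes (1.09%) had both marks in all 4. In whole tissue, both marks on the same nucleosomes and marks in different cells cannot be told apart. At HTR6 the genotypes overlapped in both measures. Coverage differed by 4.14 ± 4.08 percentage points (SE; limma adjusted p = 1.00), and log2 height by 0.05 ± 0.07 (SE; limma adjusted p = 0.851). For coverage HTR6 neither passed nor had an unadjusted p under 0.05, and the other 9 genes, at 0% in every library, could not. Of all genes, 32 of 33278 passed (0.0962%) and 639 had an unadjusted p under 0.05. In a fit of the 7775 genes with a peak in at least 2 libraries, 60 passed (0.772%) and HTR6 did not. For height HTR6 was the 1 gene of the 10 tested, and 250 of 7775 genes passed (3.22%).

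The list of 5 other H3 genes, none of them among the 10, also held genes with and without H3K27me3. After their values were seen, MGH3 (the H3 of male gametes), AT1G75600 and AT5G12910 were found to have an H3K27me3 peak in all 4 libraries. Unlike HTR6, they had an H3K4me3 peak in 0 libraries. These 3 were listed at 0 to 0.180 FPKM in 4 × Col-0 and 0 to 0.132 FPKM in Col-0. HTR11 had H3K4me3 in 4 libraries and H3K27me3 in 0, and 2.41 FPKM in 4 × Col-0 against 1.68 FPKM in Col-0. AT1G75610 had 0 FPKM in both genotypes, no H3K27me3 peak and an H3K4me3 peak in 1 library.

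**Figure D4:**
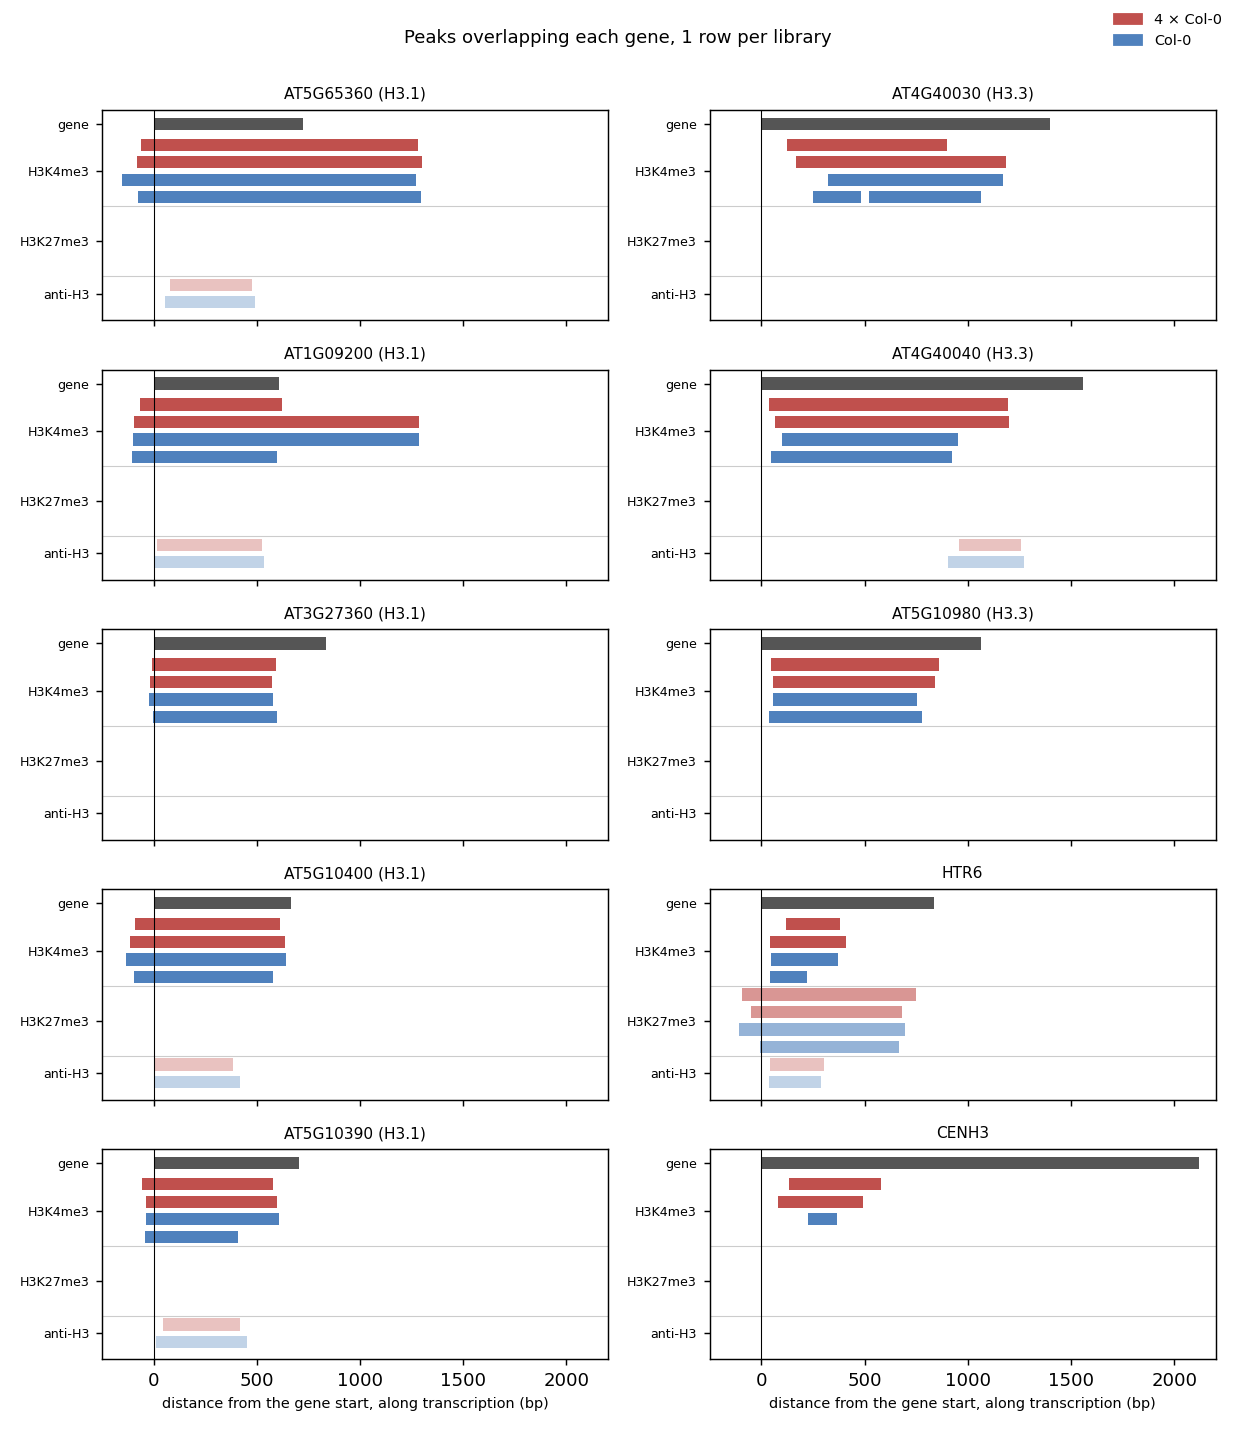
Peaks that overlap each of the 10 genes, by distance from the gene start along the direction of transcription (horizontal, bp); grey is the gene, and rows are the libraries of H3K4me3, H3K27me3 and anti-H3 from top to bottom, in each mark 4 × Col-0 (red) above Col-0 (blue). H3K27me3 bars are seen at HTR6 and not at the other 9 genes, and anti-H3 bars at 6 genes.

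Anti-H3 peaks, from 1 library per genotype and so without a test, were present in both libraries at 6 of the 10 genes, as at 43.0% of nuclear genes. Whether a separate control entered these calls is not given in the sources used here. The 6 were 4 H3.1 genes, the H3.3 gene AT4G40040 and HTR6. AT3G27360, AT4G40030, AT5G10980 and CENH3 had none on the gene body in either genotype. At the 4 H3.1 genes the peaks sat over the coding sequence. They covered 96.8% of the coding bases of AT5G65360 in 4 × Col-0, against 100% in Col-0, and 100% of those of AT1G09200 in both. At AT5G10400 the coding share was 78.6% in 4 × Col-0, against 86.9% in Col-0, and at AT5G10390 it was 83.5% in 4 × Col-0, against 92.0% in Col-0. Of the other bases of these genes they covered 0% to 49.5% in 4 × Col-0 and 8.33% to 60.7% in Col-0. This is the usual pattern: in the 1343 genes with 1 coding exon and a peak in 4 × Col-0, the median was 76.5% of coding and 3.3% of other bases, and in the 1268 such genes in Col-0 it was 78.4% and 5.21%. At AT4G40040 the anti-H3 peak lay instead in the later part of the gene, 956 to 1259 bases after the start in 4 × Col-0 and 906 to 1274 bases in Col-0. That stretch holds the ends of the H3K4me3 peaks of this gene, whose positions did not overlap between the genotypes, and since H3K4me3 was called against anti-H3 reads, the part of the anti-H3 signal in that difference was not tested. AT5G10390, the H3.1 gene with the lowest H3K4me3 height, had the lowest anti-H3 peak of the 4 H3.1 genes, with a fold of 3.95 in 4 × Col-0 and 4.15 in Col-0, against 5.11 to 5.48 in 4 × Col-0 and 4.87 to 5.20 in Col-0 at the other 3.

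Genes with the values most like those of HTR6 and of CENH3 were sought by the Euclidean distance over 10 values (the log2 heights of the 4 H3K4me3 and 4 H3K27me3 libraries and the 2 log2 FPKM values). For HTR6 they were HEC3 at a distance of 0.267, AT5G62330 at 0.338 and AT1G29110 at 0.426. HEC3, which codes for a basic helix-loop-helix factor of the carpel, had 0.155 FPKM in 4 × Col-0 and 0.396 FPKM in Col-0. For CENH3 they were AT1G16270 at 0.258, AT5G22140 at 0.277 and AAS at 0.291, with 3.69 to 4.50 FPKM in 4 × Col-0 and 3.57 to 4.23 FPKM in Col-0.

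In the Hi-C libraries the 10 genes lay in 8 bins of 50 kb with 12 to 18 genes each, so the values are those of the bins. AT5G10390 and AT5G10400 share a bin, and so do AT4G40030 and AT4G40040. The percent of the balanced signal of a bin that fell on other chromosomes had a median of 38.8% and 38.9% over 2376 bins in 4 × Col-0, against 36.1% and 34.4% in Col-0. Of the 8 bins, 7 lay higher in both tetraploid libraries than in both diploid libraries, as 90.8% of all bins did, and 2 passed an adjusted p of 0.05, as 64.0% of all bins did. The 2 were the bin of AT3G27360, with 37.8% and 36.9% in 4 × Col-0 against 33.0% and 32.8% in Col-0 (4.45 ± 1.19 percentage points, SE; limma adjusted p = 0.00502), and that of AT5G10980, with 40.5% and 39.3% in 4 × Col-0 against 37.8% and 36.4% in Col-0 (2.85 ± 1.21 points, SE; limma adjusted p = 0.0412). Replicates 1 and 2 had signal in 65.5% and 94.8% of pairs of bins in 4 × Col-0, against 41.3% and 89.0% in Col-0. The part of this in the calls was not tested. The count of 2 moved with that of all bins. It was 0 without 4 × Col-0 replicate 1, where 8.84% of all bins passed, and 0 without 4 × Col-0 replicate 2, where 0.210% did. Without Col-0 replicate 1 it was 6, with 95.9% of all bins, and without Col-0 replicate 2 it was 1, with 40.8%. The bin of HTR6 differed by 2.57 points (limma adjusted p = 0.0577), by 2.62 points with signal within the bin left out (limma adjusted p = 0.0484), and had an adjusted p of 0.0406 with a replicate block. The bin of CENH3, near the end of chromosome 1, had 51.1% and 49.95% in 4 × Col-0, against 51.3% and 48.7% in Col-0, and the genotypes overlapped. The bin of AT4G40030 and AT4G40040, near the end of chromosome 4, had the highest values of the 8, 59.7% and 59.3% in 4 × Col-0, against 58.6% and 58.9% in Col-0.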

How the data were processed

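The members and gene lists were chosen with earlier results of these data known. FPKM were made by the authors with STAR and featureCounts on TAIR10, with 3 replicates per genotype combined into the deposited value in a way the sources used here do not state. Reads of ChIP-seq were aligned with BWA, and the deposited peak lists of Macs2 give for each peak a fold enrichment and the −log10 of the q-value. Deposited Hi-C matrices hold KR-balanced signal per pair of 50 kb bins (HiC-Pro and Juicer). The submitters' notes also name R 3.4.1. Peak lists hold no reads and FPKM show no read steps, so depth and its precision are unknown; from 41.3% to 94.8% of pairs of bins had Hi-C signal. H3K4me3 lists were matched to replicates by sample title; the names of both Col-0 lists carry the other's number. Input libraries were not used here.

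Gene positions are those of the expression table, sequences are from RefSeq TAIR10.1, and all 10 genes matched by locus name. An overlap of 1 bp counted. FPKM were compared on log2(FPKM + 1), and coverage, log2(height + 1) and the Hi-C share with limma 3.58.1 in R 4.3.3 without a block, with Benjamini-Hochberg adjusted p-values over all genes or bins. The fits of log2(height + 1) were tested on simulated data, with normal noise of the same spread for every gene. Those of coverage and of the Hi-C share were not. Named genes were the 10 genes, the highest and lowest of each list at 1 FPKM or more, and the 3 nearest genes. Alternatives were a pseudocount of 0.1, upper-quartile scaling, peaks at a q-value no higher than 1e-05, 500 bp each side of the start, mean fold, heights over the library median, no filter, a replicate block, signal within the bin left out, and each library left out. A filter on coverage and crossed replicate numbers were added after seeing the data. The study calls the Hi-C and ChIP-seq libraries biological replicates, and the labels do not say whether they came from separate cultures. The p-values therefore measure the spread between these libraries. For the marks, the study set anti-H3 reads as control, with 1 anti-H3 library per genotype. Both libraries of a genotype would then share that control, and its own variation is not in the p-values or SE.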

Additional observations from a re-analysis of the deposited data

How the results depend on the processing

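Peak heights and coverage rest on 2 libraries per genotype, where an exact permutation test could not give a p below 0.333, and many genes have the same coverage in both libraries of a genotype, which leaves the limma fit of coverage a spread of 0 for them. Depth is unknown for RNA and ChIP. Of 148 values of single genes and bins under the settings that keep all libraries, 136 kept their direction and their side of the threshold and 12 did not. With a library left out, 101 of 128 did and 27 did not. A replicate block and a change of the genes tested leave every difference as it was, so only the side of the threshold could change. For FPKM, a value counted as kept where it moved by less than 0.1. For the marks and Hi-C, a difference of 0 has no direction and counted as kept on the same side of the threshold. AT5G65360 was counted so, with a coverage difference of 0 as reported and −4.50 within 500 bp of the start. The bin of HTR6 came to pass in Hi-C with a replicate block (adjusted p = 0.0406) and with signal within the bin left out (adjusted p = 0.0484). With a pseudocount of 0.1, 1 of the 10 genes (HTR6) passed 2-fold.

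Leaving out a library gave 0 to 1 of the 10 genes past the threshold for H3K4me3 coverage, 0 to 1 for H3K4me3 height and 0 to 6 of 8 bins for the Hi-C share. The 1 was AT1G09200 in coverage (0.99 points, 100% in both tetraploid libraries) and CENH3 in height, both without Col-0 replicate 1. Calls over all genes moved as well, to 187 to 851 for H3K4me3 coverage (18 as reported), to 832 for H3K4me3 height without Col-0 replicate 1 and 0 without any other library (358 as reported; 761 to 2627 at an unadjusted p under 0.05 where 0 passed), and to 296 to 1037 for H3K27me3 coverage (32 as reported). For H3K27me3 height they were 292 to 366 (250 as reported), and for Hi-C 5 to 2278 bins (1521 as reported). Differences that changed sign on leaving out a library were, for coverage in percentage points, −1.68 to 0.60 at AT3G27360, −2.64 to 6.4 at AT5G10400, −2.91 to 25.6 at AT5G10390, −2.76 to 14.7 at AT4G40030 and −0.96 to 16.7 at HTR6. For the log2 H3K4me3 height they were −0.064 to 0.25 at AT5G10390, −0.40 to 0.18 at AT4G40030, −0.11 to 0.13 at AT4G40040 and −0.27 to 0.25 at AT5G10980, for the log2 H3K27me3 height of HTR6 −0.0013 to 0.10, and for the Hi-C share of the CENH3 bin −0.79 to 1.80 points.

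Within 500 bp of the start, coverage differed by −2.15 at AT1G09200, −1.15 at AT5G10400 and −0.60 at AT5G10980. With peaks of q of 1e-05 or less, the coverage of HTR6 differed by −19.4. With the mean fold over the gene, log2 values differed by 0.028 at AT4G40030, 0.10 at AT5G10980 and 0.019 at HTR6, and with heights over the library median by 0.015 at AT4G40030 and 0.081 at AT5G10980. The cause was not tested, and none of these passed the threshold before or after.

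Over all genes, calls of H3K4me3 coverage were 18 as reported, 40 with the stricter q and 1 among genes with a peak in 2 libraries. Calls of height were 358 as reported, 154 without the filter and 0 with the mean fold. For H3K27me3, calls of coverage were 32 as reported, 116 with the stricter q and 60 among genes with a peak, and calls of height were 250 as reported and 42 with the mean fold.

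With 2 libraries per genotype the replicate numbers name libraries and are not known to pair them: the deviations of same-numbered libraries correlated at −0.184 for H3K4me3 (0.184 with the diploid numbers in the names of the lists, which are crossed against the titles), 0.0279 for H3K27me3 and 0.236 for Hi-C. With a replicate block, HTR6, the only gene of the 10 with an H3K27me3 peak, did not pass for that mark in coverage or height. The block gave 0 of the 10 genes past the threshold for coverage and height of H3K4me3 and 3 of 8 bins for Hi-C. Over all genes it gave 20 calls for H3K4me3 coverage, 0 for H3K4me3 height, 11 for H3K27me3 coverage and 242 for H3K27me3 height, and 1773 bins against 1521 as reported. With crossed numbers, the block gave 38 calls of H3K4me3 coverage and 322 of height.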
